A study of Mus musculus with 26 samples.

Results

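The effect of deleting Klf15 in brown adipocytes was examined in mice under a cold challenge, in 8 of the 26 brown adipose tissue libraries of the study. The control mice, FF, carried KLF15 flox/flox alleles without Cre (4 libraries), and the knockout mice, BKO, carried the same floxed alleles together with a Ucp1-Cre transgene, labelled Ucp1-Cre/+;K15F/F (4 libraries). All were 2 months old and on a cold challenge, whose temperature and length are not given in the sources used here. The other 18 libraries came from mice kept at room temperature and either fed or fasted, or exposed to cold and fasting together, at 3 libraries for each genotype in each condition (6 per condition). The Ucp1 promoter is active in brown adipocytes, so the Klf15 alleles of vascular, immune and stromal cells in the tissue were not targeted, and since FF mice had no Cre, an effect of the transgene itself and an effect of losing Klf15 cannot be told apart. Genes were included when they reached 1 FPKM in at least 3 of the 8 libraries, which gave 11847 genes of 48432 in the table.

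Klf15 is a zinc finger transcription factor of the Kruppel-like family that binds GC-rich and CACCC-type DNA. In liver, muscle and heart it is known as a regulator of amino acid breakdown, of glucose production in fasting and of lipid use, and glucocorticoids raise its expression. Brown adipose tissue burns lipid and glucose to make heat in cold through the uncoupling protein Ucp1, and it also oxidises branched-chain amino acids.

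The deposited values are FPKM, read fragments scaled to transcript length and to the library's mapped fragments. Differences are given as BKO minus FF on the log2(FPKM + 1) scale, on which a change at a low level appears smaller than its fold, with a standard error (SE) from a limma fit and an adjusted p (Benjamini-Hochberg over the 11847 genes, threshold 0.05). The FPKM of the 8 libraries summed to 423365 to 462209, and between 11496 and 11760 genes were at 1 FPKM or more in a library. Absolute depth is unknown, and from the steps that single fragments leave in sparse genes the depth of the libraries relative to FF replicate 1 lay between 0.696 and 1.0. The median correlation of a library pair was 0.9894 for FF, 0.9874 for BKO and 0.9881 across genotypes. FF replicate 3 and BKO replicate 3 stood apart from the other 6 on the first principal component, at scores of -19.07 and -19.18, which held 29.12% of the variance. The labels number the animals and libraries in 2 series: 3 FF libraries (replicates 2, 3 and 4) belong to the first, and FF replicate 1 and all 4 BKO libraries belong to the second. On the second principal component (19.01% of the variance) FF replicates 2, 3 and 4 scored -14.58, -7.97 and -7.49. FF replicate 1 scored 0.81 there, and BKO replicates 1 to 4 scored 1.67, 1.3, 11.21 and 15.06. Whether that component follows series or genotype was not tested. What the numbering stands for is not given in the sources used here, so comparisons with FF replicate 1 alone, and adjusted p-values with the series as a covariate, are shown beside the main results. Ucp1, Gpd1, Fasn and Scd1, which brown fat expresses strongly, were listed at 0 in all 8 libraries, a failed estimate, and have no value in cold. The remaining brown adipocyte markers were abundant, with a summed level of 19160 to 21250 FPKM in FF and 19060 to 21130 FPKM in BKO libraries.

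Before the values, the promoter windows of Gstz1, Gstm7 and Hpd are shown, 3 of the 5 genes with the largest falls on the log2 scale (the other two, Klf15 itself and Adhfe1, are not shown), together with the window that holds the divergent starts of Sfxn2 and Arl3, 2 neighbouring genes that both fell. Each runs 5′ to 3′ from 250 bases before to 50 bases after the gene's start in RefSeq on GRCm38.p6, at chr12:87146915-87147214 (plus strand), chr3:107931768-107932067 (minus strand), chr5:123182674-123182973 (minus strand) and chr19:46573115-46573414 (plus strand). Capitals mark the pattern CCNCNCCC, a GC-rich string of the kind that Kruppel-like factors bind, or its reverse complement, found by script on both strands.
Gstz1: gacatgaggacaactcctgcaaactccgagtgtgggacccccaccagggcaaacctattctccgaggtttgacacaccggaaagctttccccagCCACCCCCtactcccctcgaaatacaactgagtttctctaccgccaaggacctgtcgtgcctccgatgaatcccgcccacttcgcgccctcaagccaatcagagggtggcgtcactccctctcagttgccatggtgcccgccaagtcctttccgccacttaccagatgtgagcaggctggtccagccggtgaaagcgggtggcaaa
Gstm7: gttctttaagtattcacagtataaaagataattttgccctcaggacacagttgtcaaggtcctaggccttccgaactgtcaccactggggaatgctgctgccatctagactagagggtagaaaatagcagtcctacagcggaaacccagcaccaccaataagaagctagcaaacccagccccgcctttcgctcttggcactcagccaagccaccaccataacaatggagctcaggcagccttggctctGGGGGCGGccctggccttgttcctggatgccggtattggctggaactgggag
Hpd: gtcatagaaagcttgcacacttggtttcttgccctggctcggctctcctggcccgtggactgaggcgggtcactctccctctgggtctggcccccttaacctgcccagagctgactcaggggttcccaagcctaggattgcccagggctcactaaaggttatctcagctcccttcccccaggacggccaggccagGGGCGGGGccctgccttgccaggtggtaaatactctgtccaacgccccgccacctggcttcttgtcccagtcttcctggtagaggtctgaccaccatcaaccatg
Sfxn2: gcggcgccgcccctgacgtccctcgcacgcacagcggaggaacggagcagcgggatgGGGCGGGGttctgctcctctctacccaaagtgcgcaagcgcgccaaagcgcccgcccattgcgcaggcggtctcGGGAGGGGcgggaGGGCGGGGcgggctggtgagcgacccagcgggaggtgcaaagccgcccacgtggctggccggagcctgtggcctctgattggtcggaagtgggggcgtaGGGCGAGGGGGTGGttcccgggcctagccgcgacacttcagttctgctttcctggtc
The windows of Gstz1, Gstm7 and Hpd each held 1 match, and that of Sfxn2 held 5, some of which overlap. Of the 48 genes that fell, 38 had a window in the table, and 31 of these (81.6%) held the pattern, against 70.1% of the 8368 tested genes with a window and 49.1% of all 27025 windows. The shorter string CCACCC, which can overlap with CCNCNCCC, was in 50% of the 38, 36.6% of tested genes and 30.9% of all windows. CCCCGCCC, a form of the first pattern, was in 31.6%, 34.8% and 17.8%. Mean GC content was 60% in the 38, 61.5% in tested genes and 53.6% in all windows. A match is a description of these letters and does not show a bound site.

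Klf15 (ENSMUSG00000030087.11, GRCm38 chromosome 6, 90462576 to 90475238, plus strand) was measured first, because it is the targeted gene. Its level was 15.21, 16.89, 15.17 and 9.035 FPKM in FF replicates 1 to 4, and 2.124, 2.542, 2.837 and 2.178 FPKM in BKO replicates 1 to 4. Every BKO library lay below every FF library, with FF replicate 4 the lowest of its group. The mean fell from 14.1 ± 3.45 to 2.42 ± 0.334 FPKM (SD, n = 4 each). That left 17.2% of the FF level, and the log2 difference was -2.11 (SE 0.16, 95% interval -2.45 to -1.77, adjusted p = 1.36e-08). In whole tissue, fewer cells of a type and less RNA per cell cannot be told apart, and the transcript that was left was not assigned to a cell type. Among the 10 other tested Kruppel-like factors 0 rose and 0 fell. Klf10 was at 25.4 ± 5.55 FPKM in FF and 14.6 ± 2.43 in BKO mice (SD, n = 4 each) without overlap, yet its adjusted p was 1.

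Loss of Klf15 in cold was accompanied almost entirely by falls. Of 11847 genes, 51 or 0.43% passed the threshold, of which 48 fell and 3 rose. As shares of all genes, 0.405% were lower and 0.0253% higher. The 48 had a median log2 difference of -0.671, against a median of 0.013 over all tested genes, whose 5th and 95th percentiles were -0.195 and 0.187. In each of the 51 the 4 BKO libraries did not overlap the 4 FF libraries; over all genes 2.11% lay lower and 1.71% higher without overlap. Enzymes of amino acid breakdown, glutathione transferases and peroxisomal lipid enzymes were among the genes that fell, and 15 of the 48 belonged to 5 lists of amino acid genes of which 68 members were tested. The plot of all tested genes shows the 48 below a narrow band of differences around 0.

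**Figure D1:**
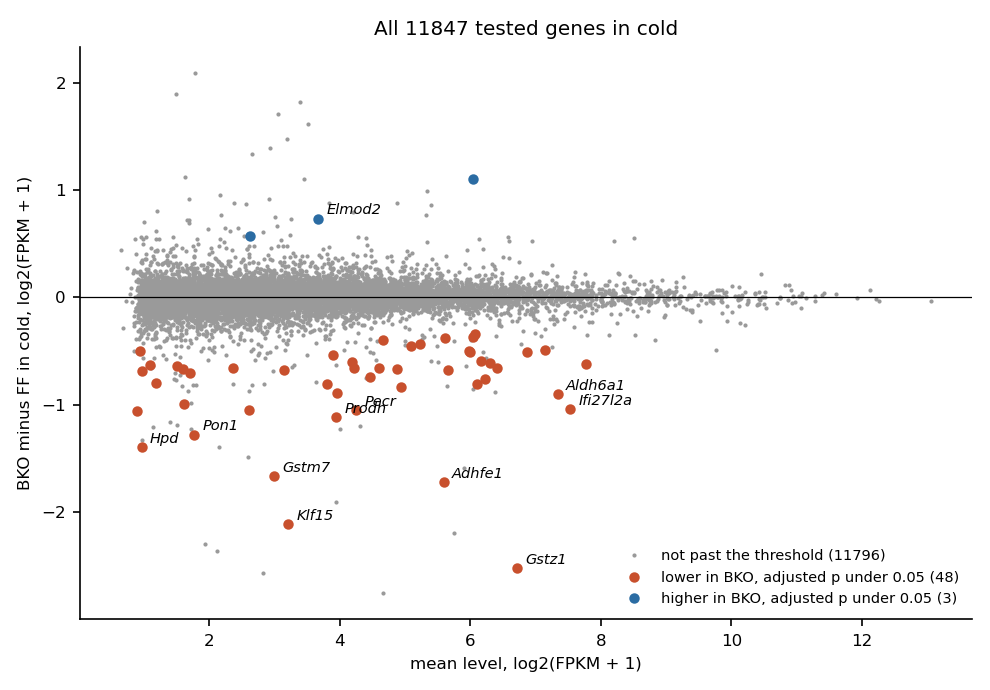
Log2 difference (BKO minus FF in cold, log2(FPKM + 1)) of the 11847 tested genes against their mean level, with 1 point per gene. Red points are the 48 genes that fell, blue points the 3 that rose, and grey points those that did not pass the adjusted threshold of 0.05. Several grey points with large differences vary strongly between libraries.

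The pathway that breaks down tyrosine held the largest fall. Of 6 tested genes of phenylalanine and tyrosine breakdown, 3 fell and 0 rose, and the list median was -0.28. Gstz1 (ENSMUSG00000021033.10, chromosome 12, 87147165 to 87164723), the maleylacetoacetate isomerase of this pathway, stood at 164.6, 206.0, 174.4 and 165.7 FPKM in the 4 FF libraries and at 30.14, 35.99, 24.95 and 29.89 FPKM in the 4 BKO libraries. The highest BKO library was far below the lowest FF library, and the BKO mean was 17% of the FF mean. The log2 difference was -2.52 (SE 0.10, adjusted p = 1.66e-13), larger on the log2(FPKM + 1) scale than that of Klf15 itself. The share left was nearly the same, at 17.2% for Klf15, whose lower level makes its difference appear smaller on this scale. Hpd (ENSMUSG00000029445.13, chromosome 5, 123171807 to 123182727), the dioxygenase that acts upstream of Gstz1, was at 1.769, 2.242, 1.991 and 1.316 FPKM in FF and at 0.03244, 0.1115, 0.09121 and 0.04806 FPKM in BKO libraries. Its transcript was close to absent from BKO tissue in all 4 libraries, at 3.87% of the FF mean, and the log2 difference of -1.39 (SE 0.11, adjusted p = 3.07e-08) understates that fold because the level is low. Fah, which cleaves fumarylacetoacetate at the end of the pathway, fell from 136 ± 10.9 to 94.9 ± 4.83 FPKM (SD, n = 4 each; -0.51 on the log2 scale, SE 0.10, adjusted p = 0.015). That call ended without any 1 of 4 libraries (FF replicates 1 and 2, BKO replicates 2 and 3), with an adjusted p of up to 0.0892. With the number series as a covariate Gstz1 and Hpd passed and Fah did not (adjusted p = 0.113). The 3 other tested members, Fahd2a, Fahd1 and Qdpr, had log2 differences of -0.05, -0.03 and -0.02.

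Enzymes of proline and glutamate oxidation were lower as well. Of 13 tested genes of proline, glutamate and ornithine metabolism, 3 fell and 0 rose (list median -0.04). Prodh, proline dehydrogenase (ENSMUSG00000003526.11, chromosome 16, 18060357 to 18090203), was at 19.51, 23.46, 18.93 and 18 FPKM in FF libraries and at 9.336, 9.391, 6.846 and 9.333 FPKM in BKO libraries. The BKO libraries lay close together except for replicate 3, the lowest, and the mean was 43.7% of that in FF mice (log2 difference -1.11, SE 0.15, adjusted p = 0.000108). Aldh4a1, the mitochondrial enzyme that carries proline carbon on to glutamate, fell from 74 ± 3.54 to 51.8 ± 3.43 FPKM (SD, n = 4 each; -0.51, SE 0.08, adjusted p = 0.00209). Glud1, glutamate dehydrogenase, fell to 78.7% of the FF level (-0.34, SE 0.07, adjusted p = 0.00901), with an adjusted p of up to 0.0663 without FF replicate 2 or BKO replicate 3. A processed copy of Glud1 exists in the mouse genome, and reads may be shared between them. Prodh passed with the number series as a covariate (adjusted p = 0.0052), while Aldh4a1 (0.0999) and Glud1 (0.418) did not. Oat, ornithine aminotransferase, was at 26 FPKM in FF and 19.3 FPKM in BKO mice without overlap (adjusted p = 0.0567), and the alanine transaminase Gpt at 41.2 and 30.7 FPKM (adjusted p = 0.213).

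Branched-chain amino acid catabolism, by which leucine, isoleucine and valine are oxidised in mitochondria, had 5 of 26 tested genes lower and 0 higher, with a list median of -0.157. Of the 26, 22 had a difference below 0 and 11 lay lower in BKO mice without overlap. Over all 11847 tested genes the median difference was 0.013, and 2.11% lay lower without overlap. Bcat2, the mitochondrial aminotransferase of the first step (chromosome 7, 45570153 to 45589711), was at 84.01, 97.17, 92.7 and 74.01 FPKM in FF libraries and at 48.22, 49.6, 50.15 and 48.21 FPKM in BKO libraries. The BKO libraries were nearly equal, all under the lowest FF library (-0.81, SE 0.11, adjusted p = 0.000188). Aldh6a1, the methylmalonate semialdehyde dehydrogenase of valine breakdown (chromosome 12, 84430717 to 84451004), was the most abundant of the 5 and was at 215.2, 237.1, 188.9 and 196.3 FPKM in FF against 110.2, 129.3, 94.15 and 115.1 FPKM in BKO libraries. It fell to 53.6% of the FF level (-0.90, SE 0.11, adjusted p = 4.6e-05). Ivd, isovaleryl-CoA dehydrogenase of the leucine branch, fell from 94.9 ± 6.66 to 61.6 ± 3.38 FPKM (-0.61, SE 0.07, adjusted p = 2.08e-05). Mut, methylmalonyl-CoA mutase, fell from 85 ± 7.99 to 56.2 ± 6.75 FPKM (-0.59, SE 0.11, adjusted p = 0.00444). Mccc2, a subunit of methylcrotonyl-CoA carboxylase, fell from 72.9 ± 2.04 to 56.3 ± 2.27 FPKM (SD, n = 4 each in these 3 genes; -0.37, SE 0.06, adjusted p = 0.00186). Bcat2, Aldh6a1 and Ivd passed with the number series as a covariate, while Mut (adjusted p = 0.123) and Mccc2 (0.0773) did not. The Mccc2 partner subunit Mccc1 was lower without overlap at -0.26 (SE 0.07), but with an adjusted p of 0.0908. The branched-chain ketoacid dehydrogenase genes Bckdha, Bckdhb and Dbt and their kinase Bckdk had differences of -0.17, -0.20, -0.36 and 0.01 and did not pass the test.

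Other steps of amino acid oxidation held single falls. In the list for lysine, tryptophan and threonine-glycine breakdown 2 of 10 tested genes fell and 0 rose, at a list median of 0.01. These were Gcdh, glutaryl-CoA dehydrogenase, at 72.4% of the FF level (-0.45, SE 0.07, adjusted p = 0.00038), and Dhtkd1, which belongs to the oxoadipate dehydrogenase complex just upstream of it, at 42.5% (-0.63, SE 0.11, adjusted p = 0.00418). Dhtkd1 was weakly expressed, at 1.58 ± 0.144 FPKM in FF and 0.672 ± 0.138 FPKM in BKO mice (SD, n = 4 each). Among 14 tested genes of sulfur amino acid metabolism 2 fell and 0 rose (list median -0.14). Cth, cystathionine gamma-lyase, was at 1.814, 1.951, 1.529 and 2.277 FPKM in FF and at 0.7331, 0.5205, 0.5822 and 0.7966 FPKM in BKO libraries, which did not overlap (-0.80, SE 0.13, adjusted p = 0.00186). Selenbp1, a methanethiol oxidase, fell to 61.7% of the FF level (-0.66, SE 0.13, adjusted p = 0.012), with an adjusted p of 0.0739 without FF replicate 2. Ccbl2, an aminotransferase that acts on kynurenine and on sulfur-containing amino acids, fell to 73.1% (-0.43, SE 0.09, adjusted p = 0.0197). Leaving out any 1 of 4 libraries (replicates 1 and 2 of FF, 1 and 3 of BKO) took its adjusted p over the threshold, to at most 0.146. None of these 5 genes passed with the number series as a covariate, where the adjusted p was 0.178 for Gcdh, 0.406 for Dhtkd1, 0.152 for Cth, 0.856 for Selenbp1 and 0.339 for Ccbl2.

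**Figure D2:**
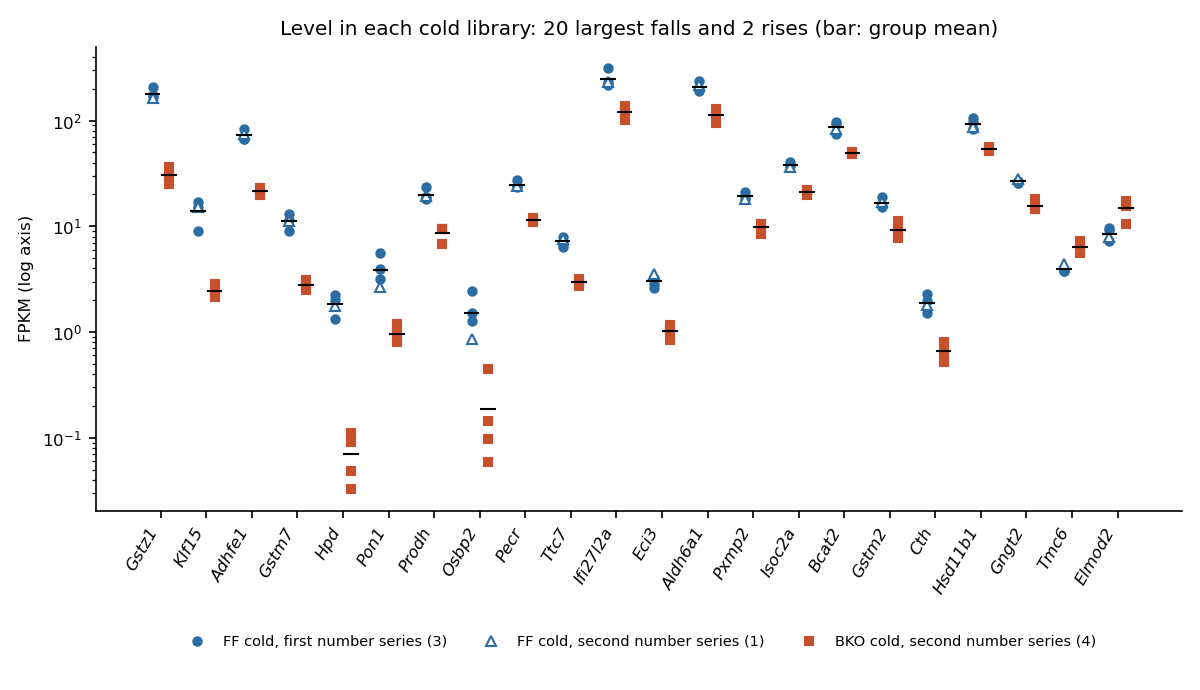
FPKM (log axis) in each of the 8 cold libraries for the 20 genes with the largest falls in log2(FPKM + 1) and 2 that rose, with blue symbols for FF, red squares for BKO and black bars at the group means. The open triangle is FF replicate 1, the FF library of the second number series. It lies above all 4 red squares in each of the 20 genes that fell, and below them in Tmc6 and Elmod2. The lack of overlap between the groups in these genes fixes that position.

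Adhfe1 (ENSMUSG00000025911.14, chromosome 1, 9547948 to 9580673), a mitochondrial transhydrogenase that converts hydroxybutyrate and oxoglutarate into succinic semialdehyde and hydroxyglutarate, followed Gstz1 and Klf15 in size of the log2(FPKM + 1) difference, while 4 genes at lower levels (Hpd, Osbp2, Pon1 and Gstm7) kept a smaller percentage of their FF level. It was at 74.13, 83.15, 67.07 and 67.44 FPKM in FF libraries and at 19.64, 22.67, 20.16 and 22.97 FPKM in BKO libraries. All 4 BKO libraries lay within a narrow range at 29.3% of the FF mean (-1.72, SE 0.10, adjusted p = 5.91e-11). It was the 1 gene to fall among 7 tested hydroxyglutarate and hydroxyacid enzymes, of which 0 rose (list median -0.10). The hydroxyglutarate dehydrogenase D2hgdh had a difference of 0.03.

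Glutathione transferases, which join glutathione to electrophilic compounds, had 4 of 17 tested genes lower and 0 higher (list median -0.08). Gstm7 (ENSMUSG00000004035.12, chromosome 3, 107926334 to 107931817) was at 11.15, 12.98, 11.52 and 8.954 FPKM in FF libraries and at 2.501, 2.8, 2.813 and 3.106 FPKM in BKO libraries. The groups were well apart, with the BKO mean at 25.2% of that in FF mice (-1.67, SE 0.12, adjusted p = 3.7e-09). Gstm2 fell from 16.7 ± 1.67 to 9.18 ± 1.53 FPKM (-0.80, SE 0.11, adjusted p = 8.55e-05) and Gstm1 from 103 ± 4.78 to 64.8 ± 4.93 FPKM (SD, n = 4 each in both genes; -0.66, SE 0.12, adjusted p = 0.00404). Gstm7, Gstm2 and Gstm1 lie next to each other on chromosome 3 with gaps of 49885 and 25802 bases and no other tested gene between them. They are close paralogs, so how reads were split between them is uncertain. Gstk1 on chromosome 6, a mitochondrial and peroxisomal transferase outside this cluster, fell from 60.9 ± 2.45 to 37.9 ± 1.47 FPKM (SD, n = 4 each; -0.67, SE 0.08, adjusted p = 4.6e-05). Of these 4, Gstm1 did not pass with the number series as a covariate (adjusted p = 0.132). Gsta3 had a difference in the other direction, 0.63 (SE 0.28, adjusted p = 1), with overlapping groups. Of 18 tested Nrf2 antioxidant genes, which electrophile stress induces, 0 rose and 0 fell (list median 0.05).

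Peroxisomal enzymes of lipid metabolism had 3 falls among 38 tested peroxisomal genes, with 0 rises and a list median of -0.04. Pecr (ENSMUSG00000026189.13, chromosome 1, 72259167 to 72284314), a peroxisomal enoyl-CoA reductase, was at 24.11, 27.38, 24.17 and 23.31 FPKM in FF libraries and at 11.21, 12.03, 11.04 and 11.42 FPKM in BKO libraries. Both groups were tight and separated (-1.05, SE 0.08, adjusted p = 4.81e-09). Pxmp2, a channel of the peroxisomal membrane, fell from 19.2 ± 1.5 to 9.89 ± 0.986 FPKM (SD, n = 4 each; -0.90, SE 0.11, adjusted p = 4.6e-05). Eci3, an enoyl-CoA isomerase of mouse peroxisomes that was not on the list, fell from 3.05 ± 0.389 to 1.03 ± 0.136 FPKM (SD, n = 4 each; -0.99, SE 0.15, adjusted p = 0.000912), and did not pass with the number series as a covariate (adjusted p = 0.128). Ehhadh, a bifunctional enzyme of peroxisomal fatty acid oxidation, was at 94.45, 93.97, 90.3 and 73.4 FPKM in FF and at 44.63, 81.85, 60.9 and 53.84 FPKM in BKO libraries. These groups overlapped, and the adjusted p was 1.

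The enzymes of mitochondrial fatty acid oxidation, respiration and the tricarboxylic acid cycle showed no gene past the threshold. Among 28 tested genes of mitochondrial fatty acid oxidation 0 rose and 0 fell, with differences from -0.164 to 0.055. The 44 genes of nuclear oxidative phosphorylation ranged from -0.139 to 0.083, at a median of -0.001, and the 29 of the tricarboxylic acid cycle from -0.224 to 0.103. Of 28 thermogenic genes 0 passed the test (median -0.03). Their differences ran from -0.812 to 0.192, a wider range than in the lists before, and Ucp1, the uncoupling protein itself, had no value. Cidea, a lipid droplet protein of brown fat, was at 1744 to 2015 FPKM in FF and 1743 to 1922 FPKM in BKO libraries (-0.02, SE 0.09, 95% interval -0.21 to 0.16). Dio2, the deiodinase that makes active thyroid hormone, ranged from 25.15 to 45.44 FPKM in FF and from 21.97 to 52.19 FPKM in BKO libraries, a wide overlap (0.07, SE 0.34, 95% interval -0.64 to 0.79). The adrenergic receptor gene Adrb3 had a difference of 0.09 (SE 0.26), the regulator Prdm16 -0.04 (SE 0.25) and the elongase Elovl3 0.19 (SE 0.37). The coactivator gene Ppargc1a was at 15.2 ± 4.40 FPKM in FF and 11.3 ± 2.54 FPKM in BKO mice (SD, n = 4 each; -0.39, SE 0.31), with overlap. Cpt1b and Slc25a20, which bring long-chain fatty acids into mitochondria, had differences of -0.02 (SE 0.09) and -0.00 (SE 0.07), and the kinase gene Pdk4 -0.22 (SE 0.18). Each of these 9 genes had an adjusted p of 1. The intervals of Dio2, Elovl3, Adrb3, Prdm16, Ppargc1a and Pdk4 (for Pdk4 -0.61 to 0.16) are too wide to show that levels were alike.

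**Figure D3:**
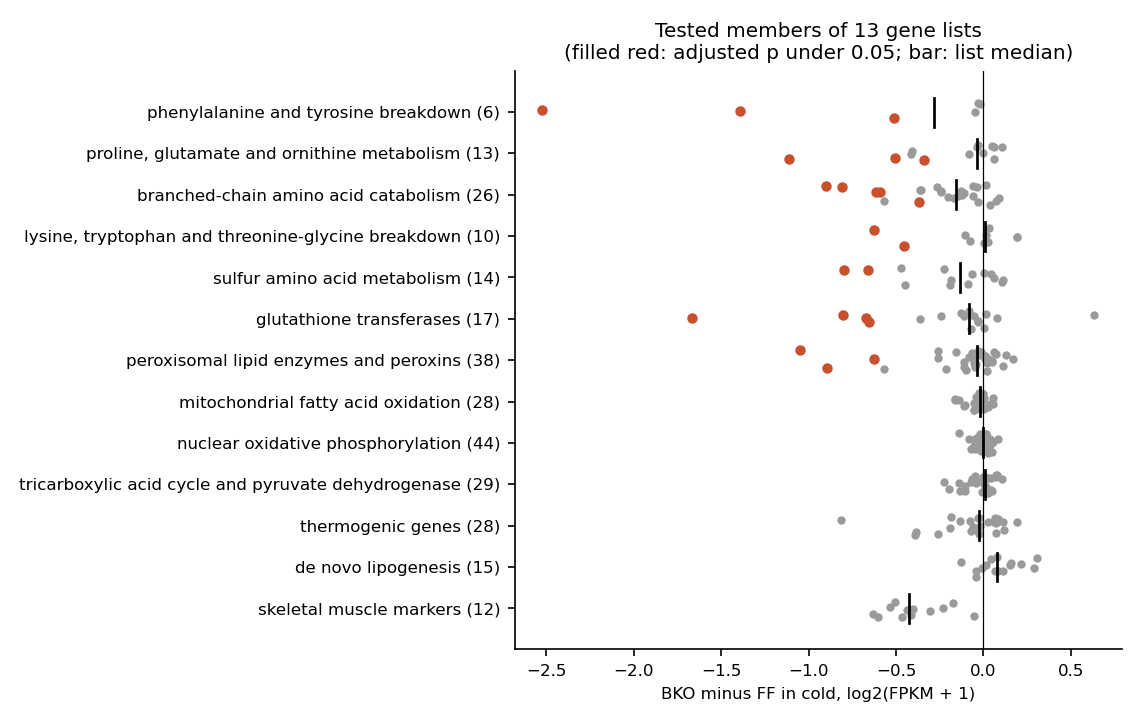
Log2 difference (BKO minus FF in cold, log2(FPKM + 1)) of the tested members of 13 gene lists, with the number of tested members in brackets and a black bar at each list median. Red points passed the adjusted threshold of 0.05. The red points lie in the 5 lists of amino acid genes, the glutathione transferases and the peroxisomal genes, while the oxidative phosphorylation and fatty acid oxidation lists stay close to 0.

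In glucose and lipid handling, 1 of 25 tested genes of glucose uptake and glycolysis fell and 0 rose (list median 0.06). It was Pfkfb1, a bifunctional enzyme that sets a glycolytic regulator, at 25.54, 21.42, 20.11 and 19.78 FPKM in FF and 13.57, 15.22, 10.39 and 14.51 FPKM in BKO libraries (-0.66, SE 0.13, adjusted p = 0.0174). FF replicate 1 was the highest, and without it, FF replicate 2, BKO replicate 1 or BKO replicate 3 the adjusted p was over the threshold, at up to 0.106; it was 0.493 with the number series as a covariate. The glucose transporter gene Slc2a4 was at 353 ± 23.9 FPKM in FF and 351 ± 10.2 FPKM in BKO mice (SD, n = 4 each; -0.00, SE 0.10). De novo lipogenesis (15 genes, median 0.08), triglyceride synthesis and lipolysis (26 genes, median -0.01), and lipoprotein lipase and fatty acid uptake (16 genes, median -0.03) each had 0 genes past the threshold. Ppara, the nuclear receptor for fatty acids, was at 54.63, 80.72, 65.01 and 52.04 FPKM in FF and at 30.18, 36.09, 42.03 and 31.58 FPKM in BKO libraries. The groups did not overlap, with a BKO mean at 55.4% of that in FF mice, but the difference of -0.82 (SE 0.21) had an adjusted p of 0.147. In the fit of the 8 cold libraries alone it passed, at 0.0424, as it did with array weights, at 0.00261. Glucocorticoid-responsive genes (16 tested), clock genes (19), insulin signalling genes (17), adipokines and differentiation genes (17), the integrated stress response (14), chaperones (19), amino acid transporters (14), immediate-early genes (13), collagens (18), cell cycle genes (5), ketone body enzymes (6) and interferon-stimulated genes (16) had 0 genes past the threshold. Differences still ran from -0.366 to 1.477 in the immediate-early genes and from -0.988 to 0.15 in the ketone body enzymes. They ran from -0.88 to 0.542 in the clock genes and from -0.227 to 0.918 in the adipokines and differentiation genes. Lack of a call in these lists does not show that levels were alike. Klf9, another glucocorticoid-induced Kruppel-like factor, had a difference of -0.10 (SE 0.16, adjusted p = 1).

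Of the 48 genes that fell, 21 were on none of the lists. Hsd11b1, which regenerates active glucocorticoid inside cells, fell from 93.1 ± 10.1 to 54.2 ± 1.80 FPKM (SD, n = 4 each; -0.76, SE 0.15, adjusted p = 0.0129), and its adjusted p rose to at most 0.0688 without FF replicate 2, FF replicate 4 or BKO replicate 3. Osbp2, an oxysterol-binding protein, was at 0.8639, 2.44, 1.283 and 1.502 FPKM in FF and at 0.05942, 0.4476, 0.09763 and 0.145 FPKM in BKO libraries, or 12.3% of the FF level. Its FF libraries varied widely, yet the groups did not overlap (-1.06, SE 0.15, adjusted p = 0.000241). Ttc7, a tetratricopeptide repeat protein, fell from 7.22 ± 0.724 to 2.97 ± 0.213 FPKM (-1.05, SE 0.14, adjusted p = 0.000123). Ifi27l2a, an interferon-induced gene, fell from 248 ± 43.9 to 120 ± 14.3 FPKM (SD, n = 4 each in both genes; -1.04, SE 0.18, adjusted p = 0.00306). The isochorismatase-domain gene Isoc2a was at 36.36, 40.61, 37.93 and 37.49 FPKM in FF and at 19.72, 22.25, 20.41 and 21.38 FPKM in BKO libraries (-0.83, SE 0.08, adjusted p = 2.53e-07), a tight separation. Gngt2, a G protein gamma subunit, was at 58.6% of the FF level, the kinase gene Prkcd at 57.0% and the small GTPase gene Rras at 76.3%. Wscd2 was at 35%, Tmeff1 at 58.9%, the liprin gene Ppfibp2 at 48.5% and the carboxylesterase gene Ces1f at 67.5%. Creg1 was at 70.3%, Mettl7a1 at 71.0%, Ttc38 at 75.4% and Gm10644 at 47.1%. Of these, Gngt2 and Wscd2 kept the call without each of the 8 libraries. Rras lost it without any 1 of the 8, and Prkcd, Tmeff1, Ppfibp2, Ces1f, Creg1, Mettl7a1, Ttc38 and Gm10644 lost it without any 1 of 4 to 7 libraries, with an adjusted p of up to 0.253 in Ces1f. The antisense transcript 2900089D17Rik was at 49.4%, and since strand-specific counting is not stated, its reads cannot be told apart from those of an overlapping gene on the other strand. Its call ended without any 1 of 5 libraries, at an adjusted p of up to 0.174. Pon1, a paraoxonase and the 1 gene to fall among 19 tested cytochromes P450 and paraoxonases, was at 2.693, 5.614, 3.958 and 3.146 FPKM in FF and at 0.8484, 0.9737, 1.19 and 0.8098 FPKM in BKO libraries (-1.28, SE 0.18, adjusted p = 0.000188). Of the genes in this paragraph, Ttc7 and Isoc2a passed with the number series as a covariate; Pon1 (0.0682), Wscd2 (0.0912) and Osbp2 (0.180) did not, and in the rest the adjusted p was 0.213 to 1.

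Some of these genes are neighbours in the genome. Aldh1l1, a folate-dependent dehydrogenase and the 1 gene to fall among 8 tested aldehyde dehydrogenases, begins 11189 bases beyond the end of Klf15 on chromosome 6 (90486427 to 90600203) on the same strand. It was at 34.7, 36.91, 36.44 and 32.77 FPKM in FF and at 22.13, 22.47, 20.61 and 21.77 FPKM in BKO libraries, without overlap (-0.67, SE 0.14, adjusted p = 0.0309). The call ended when any 1 of the 8 libraries was left out, with an adjusted p of up to 0.139. In the limma fit of the 8 cold libraries alone the adjusted p of Aldh1l1 was 0.000842. Gm44421, between Klf15 and Aldh1l1, was at 1.10 ± 0.178 FPKM in FF and 0.511 ± 0.325 FPKM in BKO mice (SD, n = 4 each; adjusted p = 0.492), and Zxdc, on the other side of Klf15, had a difference of -0.07. Sfxn2, a mitochondrial sideroflexin, and Arl3, a GTPase of cilia, lie head to head on chromosome 19 with 167 bases between their starts, inside the window printed above. Sfxn2 was at 3.094, 3.348, 2.745 and 2.897 FPKM in FF and at 1.516, 1.531, 1.432 and 1.349 FPKM in BKO libraries (-0.71, SE 0.09, adjusted p = 7.76e-05). Arl3 fell less, from 21.1 ± 2.76 to 13.5 ± 1.60 FPKM (SD, n = 4 each; -0.60, SE 0.10, adjusted p = 0.00162). Sfxn2 passed with the number series as a covariate, while Arl3 (adjusted p = 0.339) and Aldh1l1 (0.368) did not.

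Among the 3 genes that rose were Elmod2 and Tmc6. Elmod2, which activates the GTPase function of ARL proteins, is a neighbour of Ucp1 on chromosome 8 (83312632 to 83332486). It was at 7.873, 9.578, 7.238 and 9.261 FPKM in FF and at 15.53, 17.3, 10.62 and 16.34 FPKM in BKO libraries (0.74, SE 0.16, adjusted p = 0.0301), and leaving out any library but BKO replicate 3 ended the call, at an adjusted p of up to 0.154. Of 7 tested genes beside Ucp1, 1 rose and 0 fell; Tbc1d9 was at 1.92 ± 0.215 FPKM in FF and 2.98 ± 0.570 FPKM in BKO mice (SD, n = 4 each) without overlap, at an adjusted p of 0.237, and Scoc had a difference of 0.05. Tmc6, a transmembrane channel-like gene, was at 3.744 to 4.414 FPKM in FF and 5.627 to 7.3 FPKM in BKO libraries (0.57, SE 0.11, adjusted p = 0.0122), and lost the call without FF replicate 2 or BKO replicate 3, at an adjusted p of up to 0.0681. With the number series as a covariate neither passed (adjusted p = 0.812 for Elmod2 and 0.339 for Tmc6). In the main limma fit Elmod2 was also higher in fed mice (0.93, adjusted p = 0.0292) and in cold plus fasting (0.92, adjusted p = 0.0242). In fasted mice its difference was 0.37 (adjusted p = 0.221). Tmc6 had differences of 0.02 fed, 0.08 in cold plus fasting and 0.35 fasted, and did not pass in these conditions.

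Because 3 of 4 FF libraries lie in another number series than the BKO libraries, each of the 51 genes was compared with FF replicate 1 on its own. FF replicate 1 lay above all 4 BKO libraries in 48 of the 48 genes that fell, and below all 4 in the 3 that rose; over all tested genes these shares were 12.4% and 13.7%. FF replicate 1 itself took part in choosing these genes. Since BKO and FF libraries did not overlap in any of the 51, its position and the sign of its difference were fixed in advance. When the fit was made without FF replicate 1, 38 genes fell, and it lay above all 4 BKO libraries in 37 of those 38. Against FF replicate 1 the median difference of the 48 was -0.661, and against the 3 FF libraries of the first series -0.695. Gstz1 was at -2.42 and -2.56 in these comparisons, Klf15 at -2.25 and -2.06, and Pon1 at -0.92 and -1.40. With the series as a covariate all 48 kept a difference below 0 at a median of -0.647, and 17 of the 48 passed the threshold with 0 rises, among them Gstz1, Klf15, Adhfe1, Gstm7, Hpd, Prodh, Pecr, Ttc7, Aldh6a1, Pxmp2, Isoc2a, Bcat2, Gstm2, Sfxn2, Gstk1 and Ivd. In the second series alone, where the single FF library is assumed to vary like the other groups, 9 passed: Gstz1, Klf15, Adhfe1, Gstm7, Hpd, Pecr, Ttc7, Isoc2a and Ivd. With array weights 110 genes passed, 87 lower and 23 higher, among them all 51.

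**Figure D4:**
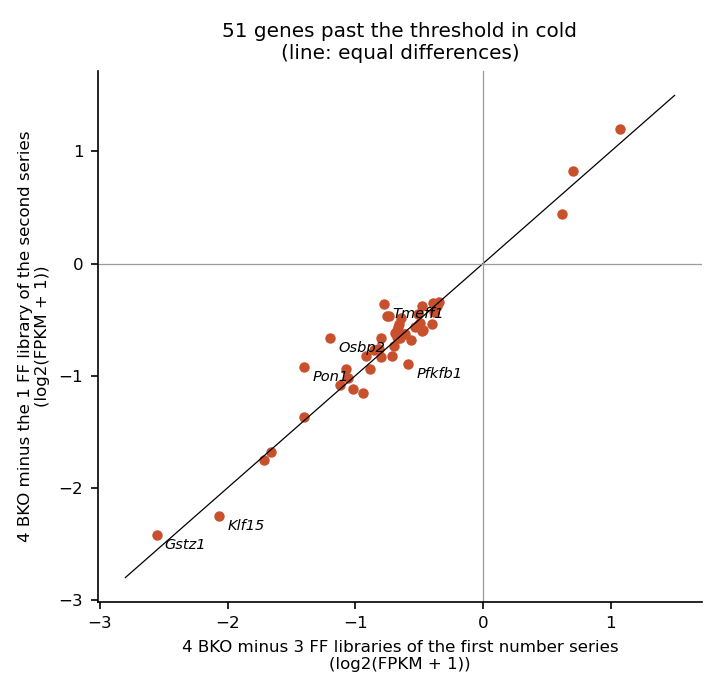
Log2 difference (log2(FPKM + 1)) of the 51 genes for 4 BKO libraries against 3 FF libraries of the first number series (x axis) and against the single FF library of the second series (y axis), with 1 point per gene and a line where both are equal. All 51 points have the same sign on both axes, which the lack of overlap between BKO and FF libraries fixes in advance. Tmeff1, Osbp2 and Pon1 lie above the line, with a smaller fall against the FF library of the second series.

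Outside the 51, 172 genes lay lower and 187 higher in BKO mice without overlap at 2 FPKM or more in the higher group, without passing the threshold. Over all 11847 tested genes, at any level and with the 51 included, 250 (2.11%) lay lower and 202 (1.71%) higher without overlap. The genes below are given as values only, since lack of overlap was not tested against chance. Besides Ppara and Klf10, the largest differences on the lower side were those of the small RNA genes Gm24967 and Gm22009, the immunoglobulin gene Ighm, the tetrahydrobiopterin regulator Gchfr, Angptl8 and Peg3. Angptl8, an insulin-induced inhibitor of lipoprotein lipase action, was at 126.1, 78.63, 69.8 and 62.33 FPKM in FF and at 39.22, 52.94, 34.76 and 54.07 FPKM in BKO libraries (-0.85, SE 0.38, adjusted p = 1). Gchfr was at 6.77 ± 0.767 and 3.38 ± 1.29 FPKM (SD, n = 4 each; adjusted p = 0.104, but 0.0428 with array weights and 0.0431 without BKO replicate 1) and Peg3 at 10.8 ± 2.21 and 6.54 ± 1.59 FPKM (SD, n = 4 each; adjusted p = 1). On the higher side were 2810474O19Rik, Gadd45g, Gm13392, Banp, B930041F14Rik, Mfsd12, Hspa8 and Gm10642, with differences of 0.55 to 0.88. Of these, Mfsd12 passed in the fit of the 8 cold libraries alone (adjusted p = 0.0315) and with array weights (0.0343), and B930041F14Rik with array weights (0.0147). Hspa8, a constitutive chaperone, was at 298 ± 71.1 FPKM in FF and 429 ± 50.4 FPKM in BKO mice (SD, n = 4 each; adjusted p = 1), and the DNA damage-inducible gene Gadd45g at 29.2 ± 9.66 and 52.8 ± 11.3 FPKM (SD, n = 4 each; adjusted p = 1).

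Markers of other cell types held 0 genes past the threshold in all 12 marker lists. The summed lymphocyte markers were at 25 to 48.1 FPKM in FF and 15.4 to 23.7 FPKM in BKO libraries, which did not overlap. Most of this was Ighm, the immunoglobulin mu chain, at 18.6, 28.83, 18.24 and 42.59 FPKM in FF and at 10.21, 9.464, 9.748 and 12.86 FPKM in BKO libraries (-1.20, SE 0.28, adjusted p = 0.0682). Ighm passed the threshold with quantile normalization (0.0487), median scaling (0.0431) and array weights (0.00934), and without FF replicate 3 (0.0445). Of 15 lymphocyte markers only 2 reached the level for testing, and the other, Igkc, had a difference of 0.17. All 12 tested skeletal muscle markers had a difference below 0 (median -0.425), while their sums overlapped widely, at 93.0 to 296 FPKM in FF and 62.9 to 288 FPKM in BKO libraries. Myoglobin, Mb, which brown fat also expresses, was the 1 muscle marker without overlap, at 45.28 to 64.13 and 26.29 to 41.61 FPKM. Macrophage markers summed to 190 to 232 and 176 to 242 FPKM, endothelial markers to 382 to 447 and 408 to 434 FPKM, and erythroid markers to 353 to 614 and 426 to 715 FPKM. Smooth muscle, nerve, fibroblast, white adipocyte and mesothelial sums overlapped too, as did the neutrophil sums at 1.80 to 2.88 and 1.33 to 5.98 FPKM. Listed at 0 in all 8 libraries were Hoxc10, Hoxc9 and Tcf21 of white adipocytes, Camp and Ngp of neutrophils, Dbh of nerve, and Krt8, Upk1b and Wt1 of mesothelium. The part of lymphocytes or muscle in the 51 differences was not tested.

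The same genes were then read in the other 3 conditions, whose libraries are separate from those in cold. The fit estimates the spread of each gene over all 26 libraries. Calls in different conditions share that spread and are not independent of each other. All 48 genes that fell in cold had a difference below 0 in fed mice at room temperature, 44 in fasted mice, and 47 in cold plus fasting; over all tested genes the shares below 0 were 47.8%, 49.9% and 50.5%. In fed mice 14 of the 48 also passed the threshold as lower, which is 14 of the 17 genes lower there (0.143% of all genes). In cold plus fasting it was 27 of the 48, and 27 of the 28 lower there (0.236% of all genes), and in fasted mice 40 of the 48, and 40 of the 472 lower there (3.98% of all genes). The median differences of the 48 were -0.464 fed, -0.907 fasted and -0.619 in cold plus fasting. All libraries of cold plus fasting belong to the second number series. Gstz1 had a difference of -2.20 fed, -2.59 fasted and -2.46 in cold plus fasting, close to its -2.52 in cold, and Adhfe1 -1.58, -1.95 and -1.74.

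**Figure D5:**
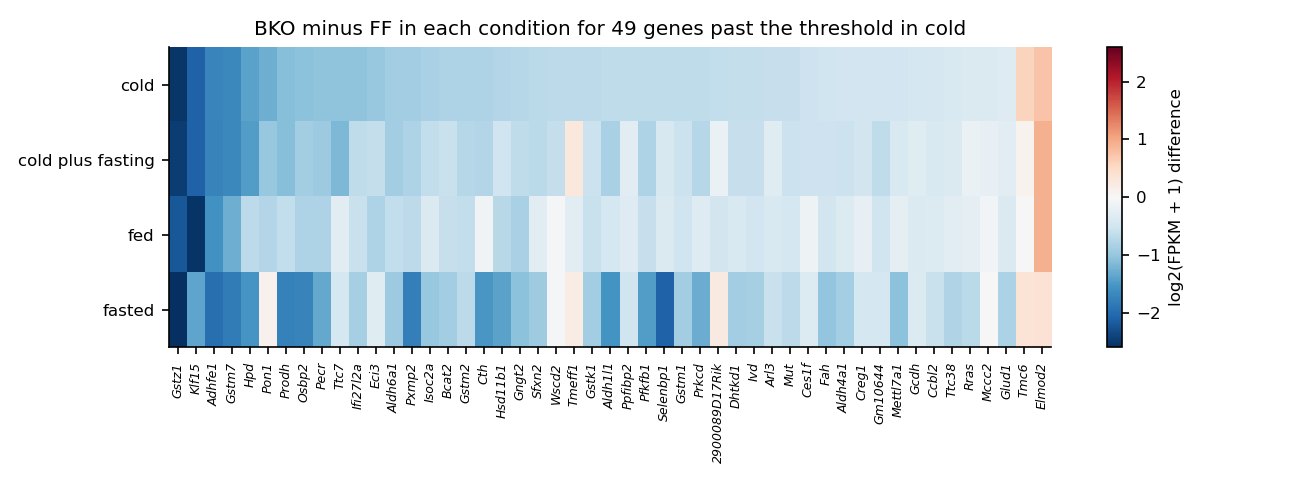
Log2 difference (BKO minus FF, log2(FPKM + 1), colour scale) of 49 of the 51 genes that passed the threshold in cold, in each of the 4 conditions, with genes ordered by their difference in cold. Blue is lower in BKO mice, and blue runs through the 4 rows for nearly all of the genes that fell; Pon1, Tmeff1 and 2900089D17Rik are pale red in fasted mice.

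Whether the effect of genotype in cold differed from that in another condition was tested directly. Against fed mice 0 of 11847 genes passed (0%; smallest adjusted p = 0.905; 383 genes, or 3.23%, had an unadjusted p under 0.05 in the limma fit), so no gene can be called particular to cold on this test. With limma's array weights, which count libraries unequally, 143 genes passed instead of 0. The 3 FF fed libraries are split between the number series, with 1 in the second, where all BKO fed libraries lie. The smallest p among the 51 belonged to Hpd, at -1.39 in cold and -0.69 fed (unadjusted p = 0.000458, adjusted p = 0.905), and another low one to Wscd2, at -0.68 and -0.04 (unadjusted p = 0.000615, adjusted p = 0.905). Mean Hpd levels were 1.83 FPKM in FF and 0.071 FPKM in BKO mice in cold, and 0.70 and 0.052 FPKM in fed mice. At such low levels the log2(FPKM + 1) difference of -0.69 understates the fold in fed mice. Against cold plus fasting 0 genes passed as well (0%; smallest adjusted p = 1; 345 genes, or 2.91%, with an unadjusted p under 0.05). Against fasted mice 144 genes passed, or 1.22%, and 7 of the 51 were among them. The 144 became 66 to 92 when any 1 of 5 cold libraries was left out (replicates 1, 2 and 4 of FF, 1 and 4 of BKO). Pon1 fell in cold and was at 13.3 FPKM in FF and 14.6 FPKM in BKO mice when fasted, a difference between conditions of -1.39 (adjusted p = 0.0119). Mccc2 (-0.37, adjusted p = 0.0498) and 2900089D17Rik (-0.88, adjusted p = 0.0387) likewise had a larger fall in cold. Selenbp1 fell from 114 to 25.8 FPKM in fasted mice, against 28.9 to 17.8 FPKM in cold, so its fall was smaller in cold by 1.44 (adjusted p = 0.000796). The fall was also smaller in cold for Pxmp2 (0.89, adjusted p = 0.0108), Aldh1l1 (0.88, adjusted p = 0.0499) and Glud1 (0.49, adjusted p = 0.0154). All FF fasted libraries belong to the first number series and all BKO fasted libraries to the second, so in fasted mice genotype and series cannot be told apart.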

How the data were processed

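RNA of brown adipose tissue was sequenced in 26 libraries, and the 8 libraries of the cold challenge give the comparison described. The authors deposited FPKM per gene; per the submitters' processing notes the tools were STAR, Cufflinks and Cuffdiff with the mouse build mm10, and their versions and roles are not given in the sources used here. Read counts were not used here, so depth is unknown and no counting error is given. From the deposited FPKM, 33 genes with zeros beside values of at least 100 FPKM, and Scd1, were left out of all tests, as a zero there was taken as a failed estimate. Genes reaching 1 FPKM in 3 of the 8 cold libraries (11847) were fitted as log2(FPKM + 1) with limma 3.58.1 in R 4.3.3, as 8 group means over all 26 libraries (18 residual degrees of freedom), with an intensity trend and Benjamini-Hochberg adjustment at 0.05, two-sided. In this fit libraries are taken as separate mice, as the labels give 1 animal number each.

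Gene lists, members and the naming rule were chosen with earlier results of these data known, and lists are described by counts and medians only. Genes named are Klf15, those past the threshold (up to 30 with full values), up to 4 members of a list with the smallest p, genes fixed by name, the 8 largest differences each way without a call or overlap at 2 FPKM or more, and the 5 largest each way between conditions; Igkc, Zxdc, Fahd1, Qdpr, Mccc1, Gsta3, D2hgdh and the branched-chain ketoacid dehydrogenase genes were added after their values were seen. The 3 genes that differed most each way between FF libraries of the 2 number series are not described. Some genes that the rule gives are not reported here. Gene IDs were matched to GENCODE M21 on GRCm38 (48051 of 48432), and promoter windows are those of RefSeq, GRCm38.p6. The fit was tested on simulated data with independent noise and no effect of the number series. For BKO minus FF in cold, 74 of 100 planted log2 changes of 0.5 and 99 of 100 of 1 were called. For cold minus fed, 33 of 100 planted changes of 0.5 and 87 of 100 of 1 were called. Genes without a planted change were called too, 16 in cold and 10 for cold minus fed. Alternatives were a pseudocount of 0.1, other filters and scalings, the 8 libraries alone, number series as a covariate or second series alone, array weights, and each library left out. The sequences and figures were handled with Python 3.11.15, pandas 2.3.3 and matplotlib 3.10.9.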

Additional observations from a re-analysis of the deposited data

Results flagged for a closer look

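In 126 groups of 4 libraries of named genes, 7 held a library farther from the other 3 than Dixon's criterion allows, and chance gives about 1 in 20. Prodh was lowest in BKO replicate 3, at 6.85 FPKM, and Pxmp2 in BKO replicate 1, at 8.42 FPKM. Gngt2 and Mettl7a1 were highest in BKO replicate 2, at 18.1 and 128 FPKM. Mut was lowest in FF replicate 3, at 73.1 FPKM. Adrb3 was highest in BKO replicate 3, at 201 FPKM, and Elovl3 in BKO replicate 4, at 830 FPKM.

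The effect of genotype in cold differed from that in fasted mice in 18 named genes by the test of the difference itself (limma, adjusted p under 0.05); values are the log2 difference in cold minus that in fasted mice. It was below 0 in Lgr6 (-1.594), Pon1 (-1.393), Prelp (-1.357), Irs3 (-1.353), Mfsd4b1 (-1.343), 2900089D17Rik (-0.875), Cpt1b (-0.629), Slc25a20 (-0.497) and Mccc2 (-0.371). It was above 0 in Glud1 (0.486), Slc2a4 (0.691), Aldh1l1 (0.883), Pxmp2 (0.89), Fbf1 (1.247), Tnfrsf12a (1.309), Selenbp1 (1.437), Acly (1.783) and Tspan4 (1.905). Of these, 11 did not pass the threshold in cold, such as Acly, the ATP citrate lyase of lipogenesis, at 1291 and 1510 FPKM in FF and BKO mice in cold and at 191 and 61.9 FPKM when fasted. In fasted mice genotype and number series cannot be told apart.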

How the results depend on the processing

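The count of 51 genes became 17 (0 higher, 17 lower) with the number series as a covariate, 9 (0 higher, 9 lower) in the second series alone, and 110 (23 higher, 87 lower) with array weights, which gave single libraries weights from 0.24 to 6.34; the cause was not tested. Without each of the 8 libraries in turn it ranged from 34 to 48, and 31 of the 48 genes that fell kept the call without each. In the limma fit of the 8 cold libraries alone 49 genes passed (3 higher, 46 lower), of which 42 were among the 51. There 40 of the 48 genes that fell kept the call. Ccbl2, Ces1f, 2900089D17Rik, Tmeff1, Glud1, Ppfibp2, Pfkfb1, Ttc38 and Elmod2 lost it in that fit, at an adjusted p of 0.0548 to 0.233. Leaving out FF replicate 3 and BKO replicate 3 together, chosen after seeing the data, gave 34 (2 higher, 32 lower). Klf15 kept its call in all alternatives run, from -2.018 to -2.462. For cold minus fed, array weights gave 143 genes (60 higher, 83 lower) in place of 0, and for cold minus cold plus fasting 4. For cold minus fasted, the 144 became 218 with quantile normalization, 322 with array weights, 66 to 148 without each library, and 71 without both replicates 3; it has no value in the second series alone, which holds no FF fasted library.

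Among genes fixed by name that had not passed the threshold, 9 changed sign under some setting, none with a call. Among genes without a call, alternatives were read only for those fixed by name and those with the largest differences without overlap. Of these, 5 gained a call under some alternative: Ppara, Ighm, Gchfr, Mfsd12 and B930041F14Rik. Each did so with array weights, and all but B930041F14Rik also under at least 1 other setting. Other genes named without a call, such as Dbt and Ehhadh, were not followed through the alternatives. The genes that changed sign with the covariate, without a call, were Adrb3 (-0.193), Cidea (0.043), Dio2 (-0.38), Elovl3 (-0.358) and Pdk4 (0.048). In the second series alone the sign changed in Cidea (0.086), Dio2 (-0.24) and Pdk4 (0.006), and without both replicates 3 in Slc2a4 (0.018). Leaving out single libraries gave ranges of -0.089 to 0.180 for Adrb3, -0.062 to 0.008 for Cidea, -0.065 to 0.015 for Cpt1b, -0.099 to 0.304 for Dio2, -0.083 to 0.042 for Prdm16, -0.039 to 0.019 for Slc25a20, -0.052 to 0.024 for Slc2a4. No paired analysis was possible because the labels give animal numbers and no replicate numbers shared between genotypes. Low values limit precision for genes near 1 FPKM, and depth is unknown.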
